A study of Homo sapiens with 36 samples.

Results

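The comparison described here asks which mRNAs of heavy polysomes differed when CRISPR interference (CRISPRi) against the isoleucine tRNA with the GAU anticodon was present in cells that also overexpressed the isoleucine tRNA with the UAU anticodon. It rests on 6 of the 36 libraries of the series: 3 high-translating libraries of each of 2 lines. Both lines derive from MDA-MB-231, an established human triple-negative breast cancer cell line whose source the labels give as xenograft, and both carry the tRNAIleUAU overexpression construct. In the first line, called UAU below, the CRISPRi construct targeted eGFP, a sequence foreign to human cells, and in the second, called isoswitch below, it targeted the GAU tRNA. The UAU overexpression construct was therefore present on both sides of the contrast, and the lines with the control overexpression construct did not enter it. Lysates of cells treated with 100 ug/mL cycloheximide for 5 min were fractionated, and RNA was taken unfractionated (total RNA), from the monosome and the first polysome peak (low fraction) and from more than 2 polysomes (high fraction). The same 2 lines in total RNA and in the low fraction, with 3 libraries per group, serve for side-by-side values. The labels give replicates A, B and C of each group and do not say whether these came from separate cultures. The p-values below therefore measure the spread among these libraries, which may be technical.

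Isoleucine is encoded by AUU, AUC and AUA. AUA is read by the tRNA with the UAU anticodon, while AUU and AUC are read chiefly by tRNA with an AAU anticodon whose first base is modified to inosine, and the GAU tRNA is a minor isoacceptor encoded by few genes. Ribosomes engaged on the same mRNA form a polysome, so an mRNA's share of the heavy polysome RNA depends on how much of it the cell holds and on how many ribosomes each copy carries. The 3 annotated genes of the GAU tRNA lie on chromosome X, the first at chrX:3838377-3838450 and the last at chrX:3915230-3915303 (GRCh38.p14). These libraries sequence the 3' ends of polyadenylated RNA and do not read tRNAs, so the level of neither tRNA was measured.

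The 6 libraries held 5192464 to 8090943 counts each. On the first principal component of all tested genes, which took 62.0% of the variance, the UAU libraries lay at -29.98, -26.86 and -16.34 and the isoswitch libraries at 32.52, 18.86 and 21.80. UAU replicate C thus lay nearest the isoswitch libraries, though on the side of its own group, and leaving it out raised the number of genes called from 4669 to 5115. The lists of other cell types gave little signal. Fibroblast markers summed to 6.28 to 7.83 CPM (counts relative to a common library total) in UAU and 6.49 to 8.75 CPM in isoswitch, with COL1A2, COL3A1, DCN, PDGFRA and FAP at 0 in all 6 libraries. Leukocyte markers summed to 9.37 to 10.7 CPM in UAU and 12 to 18.4 CPM in isoswitch, almost all of it CD68, with CD3E, CD3D and ITGAM at 0. Endothelial markers summed to 234 to 246.5 CPM in UAU and 219 to 248.3 CPM in isoswitch, almost all of it the junction protein gene ESAM, with VWF, CDH5 and CLDN5 at 0. All 12 markers of the line itself had counts, and the estrogen receptor gene ESR1 was at 0. The line's markers summed to 23190 to 24190 CPM in UAU and 14660 to 16280 CPM in isoswitch, without overlap. Most of that sum was S100A6, a calcium-binding protein gene, with a mean of 16220 CPM in UAU and 9607 CPM in isoswitch (log2 fold change -0.76, SE 0.09, adjusted p = 4.59e-06).

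Of 11688 genes tested in the high fraction, 4669 (39.9%) passed an adjusted p under 0.05 in the edgeR quasi-likelihood test, here termed called. Of these, 2415 (20.7%) were higher and 2254 (19.3%) lower in isoswitch, and the median log2 fold change of all genes was 0.01 (SD over genes 0.47). Most called differences were small: 161 genes were called and at least 2-fold higher, and 160 at least 2-fold lower, 1.38% and 1.37% of genes (2.75% together). Levels of the 3 and 3 libraries did not overlap for 49.9% of the genes tested. The same contrast called 1358 of 12069 genes (11.3%) in total RNA, 4.92% higher and 6.33% lower, and 572 of 12116 (4.72%) in the low fraction, 1.94% higher and 2.78% lower. Of the 11568 genes tested in both high fraction and total RNA, 839 were called in both. The direction was the same for 759 of them, which is 16.3% of the genes called in the high fraction and 56.5% of those called in total RNA, and opposite for 80.

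Genes of chromosome 7 were lower in isoswitch along the whole chromosome, in total RNA and in both fractions. In the high fraction 260 of 553 tested chromosome 7 genes (47%) were lower and 25 higher (median log2 fold change -0.39, ratio 0.763). In total RNA 334 of 566 were lower and 1 higher (median -0.41, ratio 0.752), and in the low fraction 152 of 572 were lower and 0 higher (median -0.37, ratio 0.771). No other chromosome came near these values: their medians ran from -0.09 to 0.12 in the high fraction, -0.04 to 0.04 in total RNA and -0.01 to 0.06 in the low fraction, and the share called lower from 10.1% to 22.3% in the high fraction and 2.1% to 6.84% in total RNA. When chromosome 7 was divided into 16 stretches of 10 Mb, the median was below 0 in each, from -0.62 to -0.08 in the high fraction and from -0.56 to -0.36 in total RNA. The high-to-total difference of the chromosome 7 genes had a median of -0.01, and the lower level was present in unfractionated RNA.

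Chromosome 7 genes took 4.495%, 4.42% and 4.395% of the counts in the UAU high-fraction libraries A, B and C, and 3.397%, 3.43% and 3.46% in the isoswitch libraries. The groups did not overlap, and 3 libraries against 3 cannot give an exact permutation p below 0.1 (two-sided), the value reached. The other lines, given for orientation, split in the same way: the share was 4.59% ± 0.05 (SD, n = 3) in the high fraction of the control line and 3.45% ± 0.01 (SD, n = 3) in that of the line with GAU CRISPRi and the control overexpression construct. Both lines with the GAU CRISPRi construct were thus low. DNA copy number was not measured, and an effect of the CRISPRi construct cannot be told apart from any other difference between the lines. Each gene of chromosome 7 is marked as such below, and its change is to be read against the chromosome's median.

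**Figure D1:**
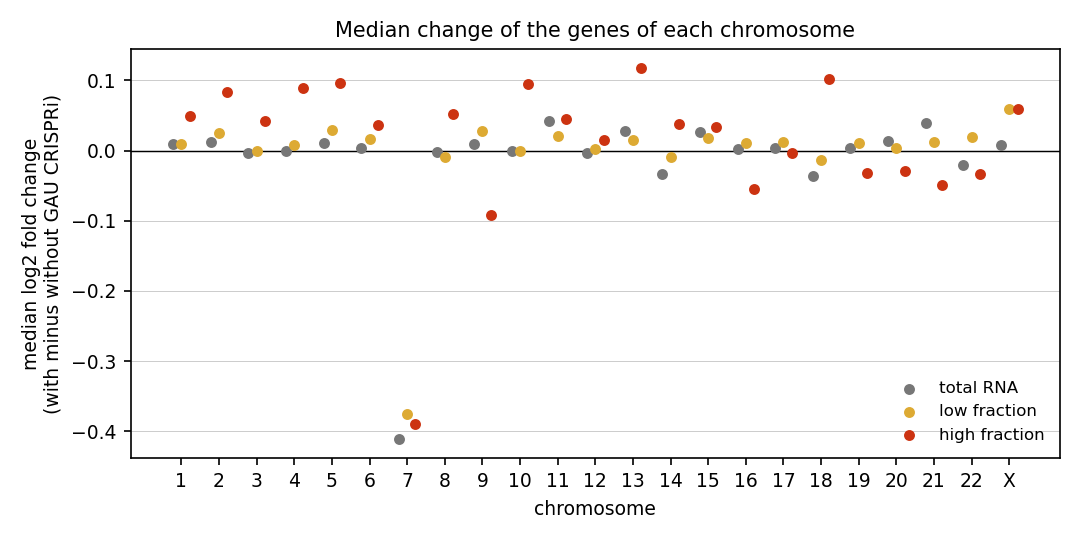
Median log2 fold change (isoswitch minus UAU) of the genes of each chromosome, in total RNA (grey), the low fraction (yellow) and the high fraction (red). Chromosome 7 lies at -0.41, -0.37 and -0.39, and all other chromosomes between -0.09 and 0.12.

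The genes with the 12 highest log2 fold changes, taken from called genes whose average log2 CPM was 3 or more and whose groups did not overlap, ranged from 1.34 to 1.90. PTK7, which encodes a catalytically inactive receptor tyrosine kinase of Wnt signalling (chr6:43076314-43161715, GRCh38.p14), stood at 3.08, 3.33 and 3.52 CPM in UAU libraries A, B and C and at 12.4, 12.2 and 12.6 CPM in isoswitch libraries A, B and C (log2 fold change 1.90, SE 0.20, adjusted p = 6.61e-07). Every isoswitch library was more than 3-fold above every UAU library. PTK7 was also higher in total RNA (log2 fold change 1.73, adjusted p = 1.08e-10), and its high-to-total difference did not pass the test (0.13, adjusted p = 0.76). SDPR, a caveolae coat protein gene also called CAVIN2, rose from 4.01, 3.53 and 4.17 CPM to 18.7, 12.1 and 12.3 CPM (log2 fold change 1.87, SE 0.21, adjusted p = 2.02e-06). Its rise was larger in the high fraction than in total RNA, where the log2 fold change was 0.62, with a high-to-total difference of 1.20 (adjusted p = 0.0011). SAA1, the acute-phase serum amyloid gene, went from 4.68, 4.90 and 6.13 CPM to 11.6, 19.2 and 18.3 CPM and rose in every compartment (log2 fold change 1.62 in the high fraction, 1.95 in total RNA and 1.96 in the low fraction).

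KRT81, a hair-type keratin gene that MDA-MB-231 cells express, was the most abundant of the 12, at 314, 350.5 and 418 CPM in UAU and 1162, 879 and 870.2 CPM in isoswitch (log2 fold change 1.43, SE 0.12, adjusted p = 1.13e-07). It overlaps and closely resembles KRT86 (1.14), so the split of reads between the pair is uncertain. PSMD12, a lid subunit of the 26S proteasome (chr17:67337916-67366577), rose from 38.7, 47.7 and 62.5 CPM to 140.4, 116 and 131 CPM (log2 fold change 1.37, SE 0.13, adjusted p = 4.21e-07), while its total RNA differed by only 0.23. FSCN1, the actin-bundling protein fascin of cell protrusions, was the only 1 of the 12 on chromosome 7, and rose from 21.4, 18 and 29 CPM to 74.4, 51 and 49.7 CPM (log2 fold change 1.34, SE 0.16, adjusted p = 3.30e-06). TGM2, the tissue transglutaminase (1.34), PPME1, which demethylates the phosphatase PP2A (1.34), SEPT6, a septin (1.39), and DHRS2, a short-chain dehydrogenase (1.34), also rose. EVI2B (1.44) lies within NF1, and ANXA2P3 (1.50) is a processed copy of ANXA2, which itself rose by 1.01, so the source of the reads of both is uncertain.

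Outside the 12, because its level was low, CDH11 was the gene named by plan with the largest rise. CDH11 encodes a cadherin typical of mesenchymal cells. It stood at 1.87, 1.57 and 1.30 CPM in UAU and 11.1, 7.84 and 8.55 CPM in isoswitch (log2 fold change 2.53, SE 0.26, adjusted p = 7.39e-07). All isoswitch libraries were far above all UAU libraries, and the log2 fold change was 3.00 in total RNA (adjusted p = 9.14e-13) and 2.07 in the low fraction (adjusted p = 0.00545).

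Of the genes with the 12 lowest log2 fold changes, 7 lie on chromosome 7. S100A4, a calcium-binding protein gene known for its part in cell motility and metastasis, had the largest fall and lies on chromosome 1 (chr1:153543621-153545806). It stood at 1948, 1741 and 1910.1 CPM in the UAU libraries and 339, 393 and 383 CPM in the isoswitch libraries, a 5.02-fold difference (log2 fold change -2.33, SE 0.10, adjusted p = 8.06e-13). The 2 groups were far apart in each of the 3 compartments: the log2 fold change was -1.65 in total RNA (adjusted p = 2.46e-22) and -1.27 in the low fraction (adjusted p = 5.16e-06). It fell further in the high fraction than in total RNA, with a high-to-total difference of -0.72 (SE 0.11, adjusted p = 4.73e-05).

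PON2, a paraoxonase of intracellular membranes on chromosome 7 (chr7:95404862-95435028), fell from 17.8, 18 and 17.6 CPM to 5.15, 4.07 and 3.76 CPM (log2 fold change -2.02, SE 0.18, adjusted p = 1.89e-07), and its total RNA by as much (-1.90). Its fall was thus far larger than the median of chromosome 7. The other chromosome 7 genes among the 12 were SEC61G, a subunit of the ER translocon (-1.30), NDUFB2, an accessory subunit of respiratory complex I (-1.29), its overlapping antisense gene NDUFB2-AS1 (-1.70), TOMM7 of the mitochondrial outer membrane import pore (-1.28), TMUB1 (-1.28) and ZFAND2A (-1.26). TOMM7 illustrates the spread: it stood at 463, 488 and 486 CPM in UAU and at 170.0, 223 and 198 CPM in isoswitch. Its total RNA changed by -0.33 (adjusted p = 4.57e-05), near the chromosome's median, and the high-to-total difference was -0.99 (adjusted p = 1.53e-06).

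The remaining genes of the 12 lie elsewhere. HSPA1B, an inducible HSP70 chaperone gene, fell from 30.2, 28.2 and 22.8 CPM to 11.1, 10.4 and 7.52 CPM (log2 fold change -1.47, SE 0.16, adjusted p = 1.25e-06). It is nearly identical to HSPA1A (0.33, not called), and the 2 cannot be cleanly separated by reads. SSPN, sarcospan of the dystrophin complex (-1.29), CLEC2B, a C-type lectin (-1.26), and SLCO4A1-AS1 (-1.48) also fell. SLCO4A1-AS1 lies within the transporter gene SLCO4A1, which fell too (-1.21). With chromosome 7 set aside, a list chosen after the values were seen, the next were ADIRF (-1.25), an adipogenesis-linked gene, RNPEPL1 (-1.21), the kynurenine pathway enzyme KMO (-1.21) and the copper chaperone COX17 (-1.17).

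**Figure D2:**
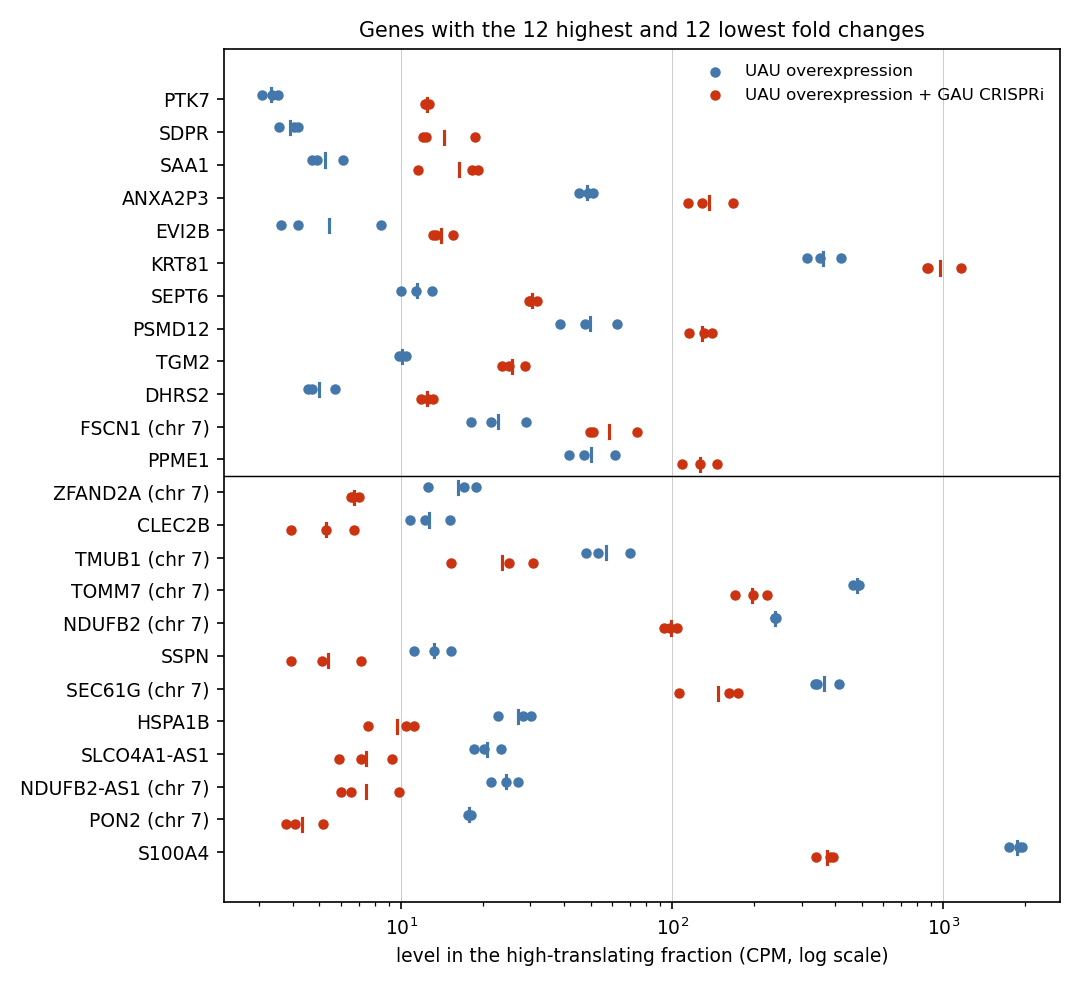
Level in the high fraction, in CPM on a log axis, of the genes with the 12 highest (above the line) and 12 lowest (below the line) log2 fold changes. Points are the 3 libraries of UAU (blue) and of isoswitch (red) and ticks are group means. Only genes whose groups did not overlap could be chosen. S100A4 runs from 1741 to 1948 CPM in UAU and 339 to 393 CPM in isoswitch.

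Gene lists are described below by the count of tested members called in each direction, to be read against 20.7% higher and 19.3% lower over all genes tested. Of the cytosolic machinery that charges tRNAs, 14 of 22 aminoacyl-tRNA synthetases and their scaffold proteins (63.6%) were higher and 0 lower, and the list's median log2 fold change was 0.48 in the high fraction, 0.03 in total RNA and 0.00 in the low fraction. FARSA, the alpha subunit of phenylalanyl-tRNA synthetase, rose from 73.3, 73 and 98.1 CPM to 212, 162 and 163 CPM (log2 fold change 1.13, SE 0.12, adjusted p = 1.17e-06). TARS, for threonine, was nearly constant within groups, at 218, 208 and 223 CPM in UAU and 383, 385 and 384 CPM in isoswitch (log2 fold change 0.83, SE 0.09, adjusted p = 7.78e-07). DARS, for aspartate, changed by 0.96, and LARS, for leucine, by 0.28.

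IARS, which charges isoleucine to all isoleucine tRNAs, was at 23.6, 27.5 and 23.1 CPM in UAU and 32.7, 25.3 and 34.9 CPM in isoswitch (log2 fold change 0.33, SE 0.13, adjusted p = 0.0528). Its groups overlapped because isoswitch replicate B lay below UAU replicate B. Without isoswitch replicate B the log2 fold change was 0.46 with an adjusted p of 0.0130, and without any other single library IARS was not called.

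Translation factors also stood high in isoswitch polysomes, with 21 of 41 higher (51.2%) and 4 lower (median 0.30). The 4 lower were EIF5A (-0.77), EIF1 (-0.32), EIF4H (-0.32, chromosome 7) and EIF4G2 (-0.27), and 2 were called lower without UAU replicate B or without isoswitch replicate C. EIF3E, a subunit of the initiation factor eIF3, rose from 42.2, 56.7 and 45.9 CPM to 109, 101 and 103 CPM (log2 fold change 1.13, SE 0.11, adjusted p = 4.70e-07). Further eIF3 subunits rose, among them EIF3L (0.84), EIF3M (0.82) and EIF3H (0.73), while EIF3A (0.10), EIF3J (0.20) and EIF3K (-0.04) were not called. EIF2S1 and EIF2S3, the alpha and gamma subunits of eIF2, which delivers the initiator tRNA, rose by 0.88 and 0.96. The elongation factor gene EEF1A1 rose by 0.81.

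Ribosomal protein mRNAs went the other way in most calls. Of the small subunit genes 18 of 32 (56.2%) were lower and 3 higher (median -0.26), and of the large subunit genes 16 of 47 were lower and 6 higher (median -0.16). RPS12 fell from 2076, 1992 and 2038 CPM to 931, 1231 and 1063 CPM (log2 fold change -0.92, SE 0.10, adjusted p = 8.99e-07), RPS21 by 0.80 and RPS29 by 0.72 on the log2 scale. RPL37A, among the most abundant mRNAs, stood at 6148, 6379 and 6343 CPM in UAU and 3398, 4225 and 3714 CPM in isoswitch (log2 fold change -0.73, SE 0.09, adjusted p = 4.51e-06). RPL4 and RPL5 ran against the list: RPL5 rose from 1072, 1282 and 1485 CPM to 2468, 2085 and 2133 CPM (log2 fold change 0.80, SE 0.11, adjusted p = 9.60e-06) and RPL4 by 0.86. The 9 risen members were RPSA, RPS3, RPS4X, RPL14, RPL6, RPL19, RPL3, RPL5 and RPL4. In total RNA no small subunit gene was lower and 8 were higher, and the high-to-total difference was called lower for 20 of 32 and higher for 0. Ribosomal protein genes have many near-identical pseudogenes, so part of their reads may be lost or shared.

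Most ribosomal protein mRNAs begin with a terminal oligopyrimidine tract, a C at the cap followed by a run of pyrimidines, which couples their translation to mTOR signalling through LARP1. Such a tract was searched, on the gene's strand, as a C at the annotated RefSeq start followed by at least 4 bases that are each C or T. It was found in 47 of the 63 ribosomal protein genes whose start was in the table (74.6%) and in 1404 of 27305 genes in all (5.14%). Of the 47 with the tract, 25 were lower and 3 higher (median -0.27), and of the 16 without it, 4 were lower and 5 higher (median 0.00). The 4 windows below, 10 bases before the start and 20 from it, are shown to compare starts of genes that fell with the start of 1 that rose, with capitals marking the tract. RPS12 is at chr6:132814559-132814588 (plus strand), RPL37A at chr2:216498834-216498863 (plus), RPS29 at chr14:49598691-49598720 (minus) and RPL4 at chr15:66504836-66504865 (minus), all in GRCh38.p14.
RPS12: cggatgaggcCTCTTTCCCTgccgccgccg
RPL37A: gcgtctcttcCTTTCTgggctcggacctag
RPS29: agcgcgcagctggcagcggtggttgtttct
RPL4: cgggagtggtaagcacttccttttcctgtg
RPS12 and RPL37A begin with the tract at the annotated base. In RPS29, which fell, and RPL4, which rose, no tract stands at the annotated start. An annotated start can lie some bases, or much further, from the start a cell uses. The annotated span of RPS29, chr14:49570988-49598710, also overlaps RN7SL1, and the RPS29 window lies at the upstream end of that span. It may therefore not show where the RPS29 mRNA counted here begins. The RPL4 window does hold a C followed by a run of pyrimidines some bases after its annotated start. Genes counted as without the tract may therefore still carry one, and a link of the tract to the change was not tested.

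Mitochondrial ribosomal protein genes were split, with 31 of 74 lower (41.9%) and 16 higher (21.6%; median -0.20). The 3 with the smallest p, MRPS17 (-0.99), MRPS33 (-0.98) and MRPS24 (-0.93), all lie on chromosome 7, and without its 4 tested members 28 of 70 were lower and 16 higher. MRPS31 (0.96), MRPS9 (0.87) and MRPS30 (0.83) were the members that rose furthest. Of 44 genes that make or modify tRNAs, 13 were higher and 5 lower (median 0.15). The higher count fell to 7 without UAU replicate A and to 8 without isoswitch replicate A. TRMT6, of the enzyme that methylates adenosine in tRNA, rose by 0.83, and NSUN2, a tRNA cytosine methyltransferase, by 0.73. POP7, an RNase P subunit on chromosome 7, fell from 516, 476 and 519.7 CPM to 200.4, 314 and 258 CPM (log2 fold change -0.97, SE 0.12, adjusted p = 3.99e-06).

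Among the lists in the plot of list counts glycolysis had the highest median, 0.68, with 13 of 19 genes (68.4%) higher and 0 lower. In total RNA 2 were higher and the median was 0.08. PKM, pyruvate kinase, rose from 162, 154 and 186 CPM to 412, 312 and 331 CPM (log2 fold change 1.07, SE 0.11, adjusted p = 6.07e-07). GAPDH was at 913, 898 and 1234 CPM in UAU and 2172, 1945 and 1822 CPM in isoswitch (log2 fold change 0.96, SE 0.11, adjusted p = 2.19e-06), and its total RNA differed by 0.10 (adjusted p = 0.181). UAU replicate C was the UAU library nearest to isoswitch for GAPDH, as on the principal component. LDHB (1.01), the glucose transporter SLC2A1 (0.95), LDHA (0.94) and ENO1 (0.90) rose by like amounts, while TPI1 (0.04) and HK1 (0.18) were not called.

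Of enzymes that break down isoleucine, leucine and valine, 17 of 28 (60.7%) were higher and 0 lower (median 0.47; total RNA 0.03). Their members include BCKDHB (1.29), a subunit of the branched-chain ketoacid dehydrogenase, PCCB (1.07) of propionyl-CoA carboxylase and ACADSB (0.95), the dehydrogenase of the isoleucine branch. ALDH6A1, of the valine branch, rose from 10.2, 9.81 and 14.5 CPM to 27.2, 25.9 and 25.6 CPM (log2 fold change 1.17, SE 0.15, adjusted p = 5.96e-06), and ACAT1, which completes isoleucine breakdown, by 0.80. BCKDK, the inhibitory kinase, was at -0.02 and not called. Without UAU replicate C 1 member was called lower.

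Oxidative phosphorylation stood opposite to glycolysis in count. Of complex I genes 20 of 38 (52.6%) were lower and 3 higher (median -0.28), and of complexes II to V 27 of 40 (67.5%) were lower and 7 higher (median -0.36). The higher count for complex I was 1 without UAU replicate B. Without the chromosome 7 genes NDUFA5, NDUFB2, CYCS and ATP5J2 the counts lower were 18 of 36 and 25 of 38. NDUFB7, an accessory complex I subunit on chromosome 19, fell from 192, 177 and 184 CPM to 92.9, 100.0 and 106 CPM (log2 fold change -0.89, SE 0.09, adjusted p = 7.69e-07). COX6C, a small subunit of cytochrome oxidase, was at 893, 836 and 896 CPM in UAU and 357, 505 and 459 CPM in isoswitch (log2 fold change -0.99, SE 0.11, adjusted p = 1.06e-06). UQCR11 (-0.90) and UQCRQ (-0.80) of complex III also fell. UQCRQ overlaps GDF9.

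The 10 members that rose include catalytic and core subunits of the same complexes, a grouping made after the values were seen. They were ATP5B (0.91), ATP5A1 (0.75) and ATP5C1 (0.62) of the F1 part of ATP synthase, ATP5F1 of its peripheral stalk (0.28), UQCRC1 (0.69) and UQCRC2 (0.66), the core proteins of complex III, SDHA (0.64), the flavoprotein of complex II, NDUFS1 (0.39), a core subunit of complex I, and NDUFA9 (0.56) and NDUFA10 (0.49), accessory subunits of it. Against them, ATP5I (-0.90) and ATP5L (-0.74), small membrane subunits of ATP synthase, fell. In the low fraction complex I genes were higher rather than lower (9 higher and 1 lower of 38, median 0.25), and in total RNA 3 were called in each direction (median 0.04).

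Cholesterol synthesis genes were mostly not called, with 7 of 27 higher and 3 lower (median 0.17), and 4 and 3 higher without UAU replicate A and isoswitch replicate A. IDI1, isopentenyl diphosphate isomerase, rose from 26.6, 27.3 and 27.1 CPM to 47.3, 47.7 and 48.2 CPM (log2 fold change 0.82, SE 0.11, adjusted p = 7.44e-06), and NSDHL by 0.66. SREBF2, the transcription factor that drives the pathway, fell by 0.62 on the log2 scale. INSIG1, which retains that factor in the ER and lies on chromosome 7, was at 161, 155 and 138 CPM in UAU and 146, 143 and 149 CPM in isoswitch, with overlapping groups (log2 fold change -0.05, SE 0.09, adjusted p = 0.703). Hypoxia-inducible genes had 8 of 19 higher and 1 lower. The higher count was 5, 4 and 4 without UAU replicate A, UAU replicate B and isoswitch replicate A, and the lower count was 0 without UAU replicate A, isoswitch replicate A or isoswitch replicate C. ADM, the vasodilator peptide adrenomedullin, rose by 0.86, and in total RNA by 1.07 (adjusted p = 2.54e-11), a difference that was not called (adjusted p = 0.217). BNIP3L (0.63), a mitophagy receptor, and PLOD2 (0.84), a collagen lysyl hydroxylase, also rose.

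The proteasome had the highest share of members called higher of the lists in the plot of list counts, 22 of 31 (71.0%), with 0 lower and a median of 0.45 (total RNA 0.02, low fraction 0.09). After PSMD12, the members with the smallest p were PSMD6 of the lid, from 28, 24.7 and 29.5 CPM to 59.2, 55.2 and 54.7 CPM (log2 fold change 1.03, SE 0.11, adjusted p = 1.00e-06), and PSMA4 of the core ring (0.95). Of the 6 ATPases of the base, PSMC1 (0.93), PSMC4 (0.93), PSMC6 (0.77), PSMC3 (0.58), PSMC2 (0.54, chromosome 7) and PSMC5 (0.37) were all called higher. PSMA7 (-0.14) and PSMB5 (0.10) were not called.

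Most folding factors that were called rose. Of ER chaperones and translocation factors 14 of 23 (60.9%) were higher and 3 lower (median 0.43). PDIA3, a protein disulfide isomerase, rose from 61.6, 57.3 and 68.1 CPM to 116, 123 and 123 CPM (log2 fold change 0.95, SE 0.10, adjusted p = 7.14e-07), PDIA6 by 0.74, and the lectin chaperones CANX and CALR by 0.71 and 0.78. The 3 lower were SDF2L1 (-0.70), SEC61B (-0.59) and SPCS1 (-0.52). Of cytosolic chaperones 10 of 19 (52.6%) were higher and 2, HSPA1B and HSPE1, lower (median 0.42). HSP90AA1, an HSP90 gene, stood at 589.9, 672 and 723 CPM in UAU and 1319, 1103 and 1117 CPM in isoswitch (log2 fold change 0.83, SE 0.10, adjusted p = 2.70e-06), and its co-chaperone STIP1 rose by 0.94.

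Targets of ATF4, the transcription factor of the integrated stress response that uncharged tRNAs can trigger through the kinase GCN2, were evenly divided, with 6 of 24 higher and 6 lower (median -0.09). Without isoswitch replicate A or B, 3 were lower. ATF4 itself fell from 481, 396 and 376 CPM to 221, 300.0 and 269 CPM (log2 fold change -0.67, SE 0.11, adjusted p = 0.000101), while its total RNA differed by 0.11 (adjusted p = 0.281). PSAT1 (0.97) and PHGDH (0.92), enzymes of serine synthesis, and the amino acid carrier subunit SLC3A2 (0.80) rose. DDIT4, an inhibitor of mTORC1, fell from 65.3, 66.9 and 81.4 CPM to 52.9, 48.6 and 55.7 CPM (log2 fold change -0.45, SE 0.11, adjusted p = 0.00291), and TRIB3 (-0.43) and DDIT3 (-0.31) fell as well. ASNS, on chromosome 7, was at 0.21 and not called.

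Cell cycle genes rose in most calls. Of mitosis genes 21 of 38 (55.3%) were higher and 3 lower (median 0.43), 5 lower without UAU replicate C. CCNB1, the mitotic cyclin B1, went from 164, 178 and 194 CPM to 383, 356 and 356 CPM (log2 fold change 1.03, SE 0.09, adjusted p = 2.59e-07), with a smaller rise in total RNA (0.20, adjusted p = 0.0134). CDC20 (1.08), which activates the anaphase-promoting complex, the spindle protein NUSAP1 (0.96) and the kinase AURKA (0.92) rose, and CKS1B (-0.81), UBE2S (-0.71) and BIRC5 (-0.34) fell. Of DNA replication genes 26 of 47 (55.3%) were higher and 5 lower (median 0.36). POLD3, a DNA polymerase delta subunit, rose from 37.9, 42.8 and 48.7 CPM to 89.7, 80.5 and 81.5 CPM (log2 fold change 0.96, SE 0.11, adjusted p = 1.90e-06). RPA3 (-1.12), of the single-strand binding complex, and POLD2 (-0.86), both on chromosome 7, fell, and without the 4 tested chromosome 7 members 26 of 43 were higher and 3 lower. The listed histone genes had 1 of 16 higher, 2 without UAU replicate C, and 6 lower (median -0.11). H2AFV (-0.80, chromosome 7), H2AFZ (-0.64) and HIST1H4C (-0.65) fell and the macrohistone H2AFY (0.57) rose. HIST1H4C fell in total RNA as well (-0.42), and its high-to-total difference was not called (-0.27, adjusted p = 0.057), while those of H2AFV and H2AFZ were.

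The S100 and annexin genes, both calcium-binding families, separated by family. All 8 S100 genes that were called fell, from S100A4 (-2.33), S100P (-1.34) and S100A13 (-1.02) to S100A16 (-0.57), while S100A11 (-0.23) was not called. All 8 annexins tested rose, from ANXA11 (0.30) to ANXA1. ANXA1 went from 39.2, 34.9 and 35 CPM to 104, 71.2 and 83.1 CPM (log2 fold change 1.24, SE 0.13, adjusted p = 6.07e-07), and ANXA5 from 145, 125 and 152 CPM to 309, 258 and 279 CPM (log2 fold change 1.00, SE 0.10, adjusted p = 5.33e-07). In total RNA ANXA1 differed by 0.04 (adjusted p = 0.766) and ANXA5 by 0.10 (adjusted p = 0.314). This split into families was noted after the values were seen, and the number of the list's genes called higher was 7 with upper-quartile scaling and 6 with DESeq2, while 9 were called lower with either of these or with RLE scaling.

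Genes of epithelial junctions and keratins had 9 of 18 higher and 1 lower (median 0.38). KRT8 (0.97), KRT19 (0.84) and KRT18 (0.73), the simple epithelial keratins, and CLDN1 (1.01) rose, while CLDN4, on chromosome 7, fell from 69.2, 76.1 and 91.6 CPM to 35.5, 33.8 and 33.8 CPM (log2 fold change -1.20, SE 0.12, adjusted p = 4.21e-07). Luminal markers summed to 318.5 to 407 CPM in UAU and 493.6 to 543.2 CPM in isoswitch, chiefly through these keratins, with GATA3 (0.72) higher and MUC1 (-1.19) lower; 2 of the 9 tested were lower without UAU replicate C or isoswitch replicate B. In such bulk libraries fewer cells of a type and less RNA per cell cannot be told apart. Mesenchymal and metastasis genes had 11 of 26 higher (42.3%), 7 without UAU replicate A, and 3 lower (median 0.37). VIM, vimentin, rose from 668, 702 and 674 CPM to 1456, 1153 and 1254 CPM (log2 fold change 0.92, SE 0.10, adjusted p = 7.14e-07) with total RNA at -0.03 (adjusted p = 0.824). CTGF (1.14), a matricellular factor, the chemokine receptor CXCR4 (1.30) and the hyaluronan receptor CD44 (0.91) rose, and FN1 (-0.66), ID1 (-0.48) and IL11 (-0.32) fell. Of 12 genes that mark the line, 4 rose and 4 fell, of which CAV1 (-0.30) and CAV2 (-0.71) lie on chromosome 7.

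Actin cytoskeleton genes had 11 of 35 higher, 7 without UAU replicate A, and 5 lower (median 0.00). TMSB4X, which sequesters actin monomers, fell from 842, 698 and 703 CPM to 227, 403 and 387 CPM (log2 fold change -1.14, SE 0.15, adjusted p = 5.88e-06), and ACTG1, cytoplasmic gamma-actin, rose from 1858, 2058 and 2882 CPM to 4248, 4131 and 4015 CPM (log2 fold change 0.87, SE 0.12, adjusted p = 1.18e-05). Immediate early genes had 10 of 25 higher, 6 without UAU replicate B, and 3 lower (median 0.28), with MYC (1.08), DUSP6 (0.85) and JUNB (0.84) among the higher. Interferon-induced genes had 6 of 28 higher and 4 lower, near the share of all genes. BST2, tetherin (-0.86), and ISG15 (-0.65) fell and SP100 (0.62) rose. MHC class I and antigen processing genes had 8 of 17 higher and 1 lower, and without UAU replicate A 5 higher and 0 lower. The lower count was also 0 without isoswitch replicate C. HLA-B (0.71), which shares sequence with other class I genes, PSME1 (0.62) and the checkpoint ligand CD274 (0.90) rose.

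Non-coding RNAs had the lowest of these medians, -0.39, with 17 of 29 (58.6%) lower and 1 higher, while in total RNA 2 were lower and 6 higher (median 0.05). Many are snoRNA host genes whose spliced RNA carries few ribosomes or is degraded when translated. SNHG6 fell from 124, 119 and 99.3 CPM to 47.5, 66.1 and 58.3 CPM (log2 fold change -0.99, SE 0.12, adjusted p = 3.12e-06), GAS5 from 66.4, 70.6 and 66.1 CPM to 31.7, 46 and 34.5 CPM (log2 fold change -0.85, SE 0.12, adjusted p = 1.96e-05), and LRRC75A-AS1, also known as SNHG29, by 0.85 on the log2 scale. The nuclear RNAs MALAT1 (-0.66) and NEAT1 (-0.37) fell as well. Whether the RNA counted in the high fraction was bound to ribosomes was not tested. The list lay far to the light side of the gradient in control cells, as given with the plot of gradient position.

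**Figure D3:**
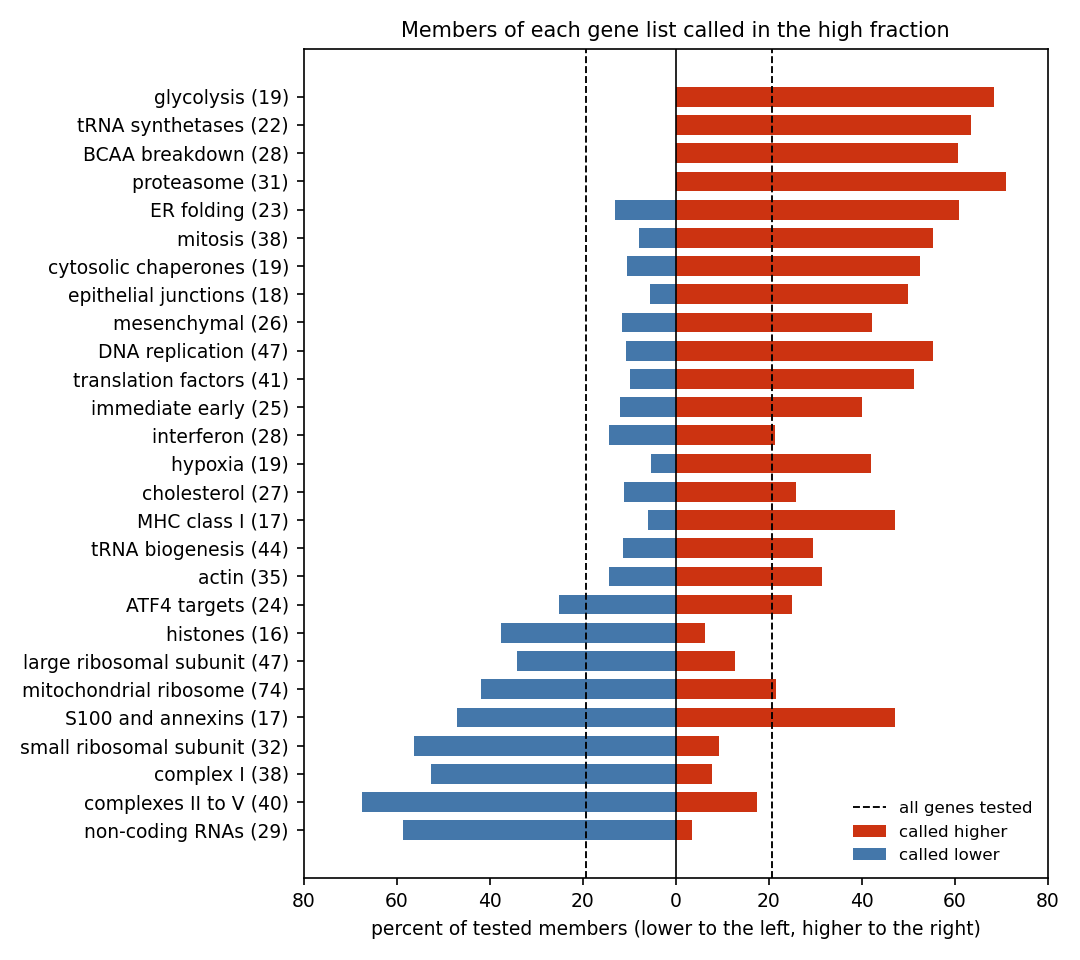
Percent of the tested members of each gene list (number tested in parentheses) called higher (red, right) or lower (blue, left) in the high fraction of isoswitch, ordered by the list's median log2 fold change. Dashed lines mark the share of all genes tested, 20.7% higher and 19.3% lower; glycolysis and proteasome reach 68.4% and 71.0% higher, and complexes II to V 67.5% lower.

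To ask whether the change in heavy polysomes differed from that in total RNA, the difference of the 2 log2 fold changes was tested over 12 libraries. It was called for 2762 of 12275 genes (22.5%), 1368 higher (11.1%) and 1394 lower (11.4%). The share called was below this for hypoxia-inducible genes, ATF4 targets, interferon-induced and immediate early genes and for the fibroblast, leukocyte and endothelial markers, of which at most 2 per list were tested, and above it for the other lists. Lists whose calls were mostly higher included proteasome (18 of 31 higher, 1 lower), glycolysis (11 of 19 higher, 0 lower), cytosolic chaperones (10 of 19 higher, 2 lower), synthetases (10 of 22 higher, 0 lower), branched-chain amino acid breakdown (12 of 28 higher, 0 lower), mitosis (15 of 38 higher, 3 lower) and translation factors (15 of 41 higher, 3 lower). Lists whose calls were mostly lower included small ribosomal subunit (20 of 32 lower, 0 higher), large ribosomal subunit (21 of 47 lower, 2 higher), mitochondrial ribosome (31 of 74 lower, 11 higher), complexes II to V (27 of 40 lower, 5 higher), complex I (24 of 38 lower, 1 higher) and non-coding RNAs (18 of 29 lower, 0 higher). Chromosome 7 genes had 59 of 580 higher and 61 lower.

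The 4 highest differences were those of GPAT2, a mitochondrial acyltransferase (1.35, SE 0.30, adjusted p = 0.0015), TRAP1, the mitochondrial HSP90 (1.29, SE 0.16, adjusted p = 1.95e-06), ANXA2P3 (1.29) and PLIN4, a lipid droplet protein (1.27). TRAP1 rose from 17.7, 19.2 and 21.4 CPM to 51.2, 39.1 and 48.5 CPM in the high fraction while its total RNA differed by -0.08 (adjusted p = 0.631). The 4 lowest were those of the non-coding MIR4458HG (-1.61), GDF9 (-1.57), NDUFB2-AS1 (-1.48) and PET100, an assembly factor of cytochrome oxidase (-1.43). GDF9 and PET100 were called in opposite directions in the 2 compartments. PET100 fell from 229, 252 and 299 CPM to 124, 169.7 and 147 CPM in the high fraction, against log2 fold changes of 0.57 in total RNA and 0.84 in the low fraction (adjusted p = 0.00196). Of the 80 genes called in both compartments with opposite signs, 55 were lower in the high fraction and higher in total RNA, and 6 of the 80 encode ribosomal proteins. Of the genes on a list, those of chromosome 7 fell in the reverse set: EIF3B, ACTB, PSMC2, ZYX and PDIA4 were lower in total RNA (from -0.49 to -0.18) and higher in the high fraction (from 0.37 to 0.54).

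**Figure D4:**
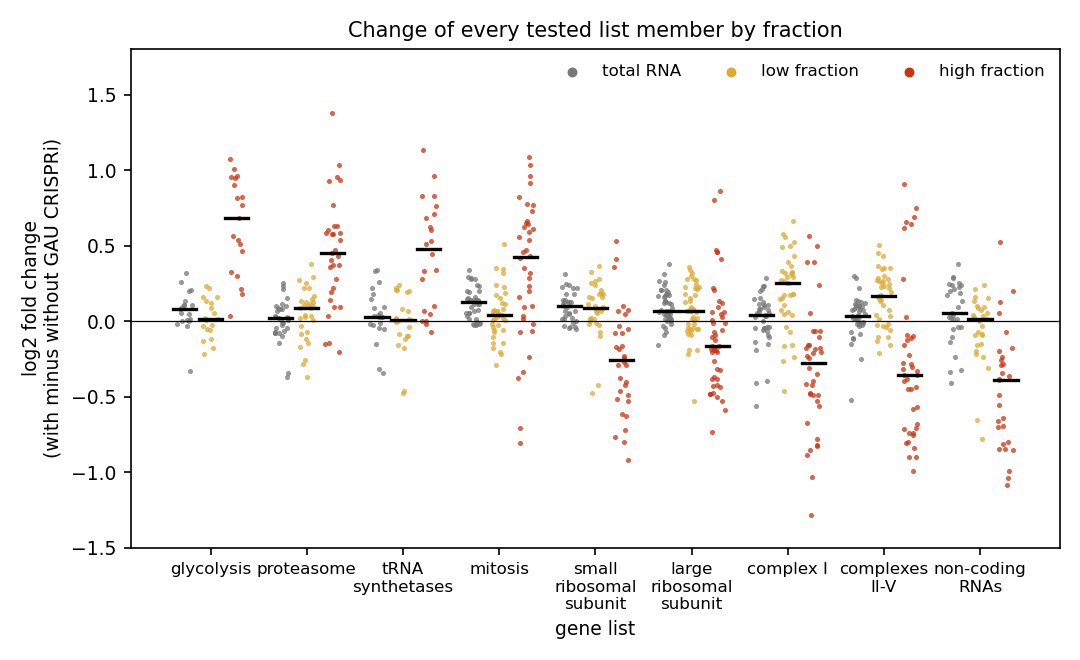
Log2 fold change (isoswitch minus UAU) of every tested member of 9 gene lists in total RNA (grey), the low fraction (yellow) and the high fraction (red), with black bars at the list medians. Medians in total RNA lie between 0.02 and 0.13 for these lists, while those in the high fraction run from -0.39 for non-coding RNAs to 0.68 for glycolysis.

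The change was next set against each gene's place in the gradient of the control line, measured in libraries outside the contrast as log2 CPM in the low fraction minus that in the high fraction. Over 11474 genes, which are not independent replicates, Spearman's rho with the high-fraction change was -0.31, from -0.25 without UAU replicate A to -0.36 without UAU replicate C. It was -0.05 over 11702 genes for total RNA and -0.23 over 11711 genes for the low fraction. When genes were divided into 5 sets of like size by this position, of the 2294 placed heaviest in control cells 784 (34.2%) were higher and 274 (11.9%) lower (median 0.15), and of the 2295 placed lightest, 125 (5.45%) were higher and 779 (33.9%) lower (median -0.28). Some lists followed this order, such as non-coding RNAs, with a median gradient position of 2.83, and the proteasome, at -1.38. Others did not: complex I, most of whose calls were lower, had a median position of -0.65 and complexes II to V -0.42, both on the heavy side, like glycolysis at -0.74. The part that the cut between fractions plays in these differences was not tested.

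**Figure D5:**
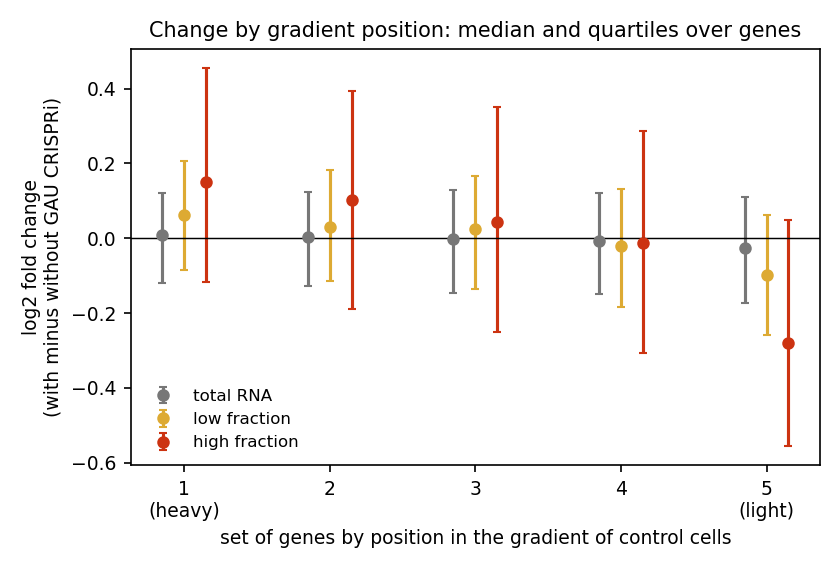
Log2 fold change (isoswitch minus UAU) of 5 sets of genes ordered by position in the gradient of control cells, from the heaviest (1) to the lightest (5). Points are medians and bars the quartiles over genes. In the high fraction the median goes from 0.15 to -0.28, while in total RNA it stays between -0.03 and 0.01.

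The genes nearest the GAU tRNA genes were read as well. LOC389906, a pseudogene that overlaps the first GAU tRNA gene, stood at 6.02, 4.71 and 2.35 CPM in UAU and 3.90, 3.02 and 4.61 CPM in isoswitch, with overlapping groups (log2 fold change -0.17, SE 0.31, adjusted p = 0.684). PRKX, a protein kinase gene nearby on the same arm (chrX:3604340-3713649), was at 22.8, 25.3 and 20.5 CPM in UAU and 15, 17.8 and 17.1 CPM in isoswitch (log2 fold change -0.45, SE 0.14, adjusted p = 0.0122). The PRKX call was lost without UAU replicate B (adjusted p = 0.0589) and without isoswitch replicate A (adjusted p = 0.0668), and its total RNA differed by 0.15 (adjusted p = 0.561).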

How the data were processed

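The deposited files hold raw counts per gene symbol for each library, with no normalization. Per the submitters' processing notes, STAR, featureCounts, DESeq2 and build hg38 were used; not given in the sources used here are versions, annotation and strand setting, so overlapping and antisense genes are uncertain. Per the labels' protocols, 500 ng RNA entered the Lexogen QuantSeq 3' kit. The labels name no molecular identifiers, and tests rest on the spread between libraries.

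Counts were fitted with the edgeR 4.0.16 quasi-likelihood test (R 4.3.3; filterByExpr, TMM scaling, Benjamini-Hochberg adjustment over all genes tested), and calls required an adjusted p under 0.05. The high-fraction fit used 6 libraries and the high-to-total difference 12. SE is the log2 fold change over the square root of F. CPM uses TMM factors of the 6 libraries of a fraction. Totals per library were 5192464 to 8090943 counts in the 6 high-fraction libraries. The script was tested on simulated data with far fewer changed genes than were called here and the same dispersion for every gene. That run checked the code and does not give the error rate in these libraries. DESeq2 1.42.0 was an alternative.

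Named genes were the called genes with the 12 highest and the 12 lowest log2 fold changes whose average log2 CPM was 3 or more and whose groups did not overlap, up to 3 called members per list by smallest p, the 4 highest and 4 lowest high-to-total differences among genes called there whose average log2 CPM over the 12 libraries of that fit was 3 or more, and IARS, S100A4, INSIG1, PON2, CDH11, DDIT4, CCNB1, GAPDH, RPS12, PRKX and LOC389906 by plan. Other list members are quoted to describe a list. The 32 lists and the comparison were chosen with earlier results of these data known, and another list is not reported here. Of 26485 symbols, 25320 matched a gene of RefSeq (GRCh38.p14), the source of positions and start sequences. The chromosome comparison was added after the values were seen. Isoleucine and codon content was not analysed here.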

Additional observations from a re-analysis of the deposited data

Results flagged for a closer look

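RPS12 encodes a small ribosomal subunit protein. Its level was lower in the high fraction (-0.92, adjusted p = 8.99e-07) and higher in total RNA (0.24, adjusted p = 0.000755), and the difference between the compartments was -1.21 (SE 0.12, adjusted p = 1.04e-07, edgeR). GDF9, a growth factor gene that overlaps UQCRQ, was at -0.98 in the high fraction and 0.55 in total RNA (adjusted p = 0.000233), a difference of -1.57 (SE 0.15, adjusted p = 1.11e-07). PET100, which overlaps PCP2 and STXBP2, was at -0.82 in the high fraction and 0.57 in total RNA (adjusted p = 8.94e-07), a difference of -1.43 (SE 0.15, adjusted p = 1.49e-07). Among all genes, 80 were called in opposite directions in the 2 compartments. These 3 are the ones that the rule for named genes had picked, and others, such as ATP5I with a difference of -1.22 (adjusted p = 1.49e-07), differed as much as RPS12.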

How the results depend on the processing

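The 4669 calls of the high fraction became 4985 in a fit of all 4 lines, 4681 with RLE and 4694 with upper-quartile scaling, 3801 with DESeq2, 4697 with no filter and 4587 with a mean count of at least 20. With at least 2-fold as a condition, 321 remained. Leaving out 1 library at a time gave 3594 to 5115 calls (1854 to 2664 higher, 1678 to 2451 lower). The high-to-total difference, called for 2762 genes, gave 2427 calls with DESeq2 and 2114 to 3498 without 1 library (1030 to 1828 higher, 1051 to 1670 lower). The replicate block gave 4195 and 2630 calls. Same-letter libraries of the 2 lines had deviation correlations of -0.12, -0.03 and -0.10. These values show no pairing by letter between the lines, but 3 libraries per group cannot exclude a shared batch. Between total and high libraries of the same line and letter the correlations were 0.03, 0.01 and -0.04 in UAU and 0.05, 0.03 and 0.02 in isoswitch. Each isoswitch library correlated best with its own letter, and in UAU only the replicate A libraries did. A replicate block within each line, added after the values were seen, gave 2831 called differences. Without chromosome 7 genes, a setting added after the values were seen, 4346 of 11135 and 2642 of 11701 genes were called. The share of calls that were higher stayed between 46.8% and 53.3%. Every setting scales the libraries so that the typical gene lies near no change, so this share cannot show a shift of all genes together.

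Of the named genes' values, 1573 kept direction and side of the threshold under an alternative. LOC389906 reversed to 0.18 (not called) without UAU replicate A, the highest of -0.51 to 0.18 without 1 library. IARS was called with no filter (adjusted p = 0.0442). Causes were not tested. Of list counts, 851 stayed within 1.5 times and 45 moved further; with DESeq2 these were tRNA biogenesis (7 higher), hypoxia (4 higher, 0 lower) and MHC class I (5 higher). Low counts limit genes near 3 CPM or less, such as CDH11 in UAU.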

Other observations

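Some gene families outside the lists, grouped by the start of their symbols after the values were seen, are described here with no test. Other families counted in the same way are not given. The counts are to be read against 20.7% higher and 19.3% lower over all genes tested. Of 24 HNRNP genes, which package and splice pre-mRNA, 18 were higher in the high fraction and 1 lower (median log2 fold change 0.69), and 10 were higher in total RNA as well. SR splicing factors (SRSF) had 8 of 11 higher and 1 lower (median 0.50), and DEAD-box helicases (DDX) 25 of 34 higher and 0 lower (median 0.60). Sm and LSm genes were taken as symbols starting with SNRPB, SNRPD, SNRPE, SNRPF, SNRPG or SNRPN, or with LSM and a digit. They ran the other way, with 14 of 20 lower and 3 higher (median -0.53). The CCT chaperonin, which folds actin and tubulin, had 7 of 9 subunit genes higher and 0 lower (median 0.82), and tubulin genes 6 of 11 higher and 1 lower. RNA polymerase II subunits (POLR2) had 10 of 16 lower and 1 higher (median -0.40). Members on chromosome 7 were not set apart in any of these family counts, so part of a family's fall may be that of the chromosome. Zinc finger genes with ZNF symbols were mostly not called, with 24 of 363 higher and 40 lower.

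By RefSeq class, 100 of 363 long non-coding RNAs (27.5%) were lower and 23 (6.34%) higher, with a median of -0.32 in the high fraction and 0.00 in total RNA. Transcribed pseudogenes had 31 of 130 lower and 6 higher (median -0.26). Protein-coding genes had 2369 of 11028 higher (21.5%) and 2077 lower (18.8%). Of the genes with symbols starting with LINC, 19 of 54 were lower and 0 higher in the edgeR test, against 19.3% lower and 20.7% higher over all genes tested.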
